A study of Vitis vinifera with 24 samples.

Results

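Embryogenic callus (EC) of the grapevine cultivar Sangiovese (SG) was compared with non-embryogenic callus (NEC) of the same cultivar in 6 of the 24 RNA sequencing libraries of the study, 3 from each tissue. The loci described are those with a level of 1 FPKM or more in at least 3 of these 6 libraries, which were 19098 of the 29971 loci in the table. FPKM counts sequenced fragments relative to transcript length and library size, so levels can be set side by side between loci. The study followed somatic embryogenesis in SG, labelled highly competent, and in Cabernet Sauvignon (CS), labelled poorly competent, with 3 libraries for each of 8 groups.

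Both SG callus types came from anthers kept in the dark on an induction medium with 4.5 µM of the auxin 2,4-D and 8.9 µM of the cytokinin BAP. After 3 months the calli spent 1 month on a proliferation medium with 10 µM NOA, 1 µM BAP, 20 µM IAA and 2.5% activated charcoal. EC and NEC therefore shared medium, hormones and age, and were told apart at month 4 by their appearance under a stereomicroscope. CS EC and CS NEC were made in the same way. Undifferentiated callus at day 40 (40D) and anthers of SG are used here as further reference tissues. The labels call the replicates biological and do not say whether they came from separate cultures, so the p-values measure a spread between libraries. That spread was estimated for each locus from all 8 groups together, and not from the SG EC and NEC libraries alone.

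Somatic embryogenesis is the formation of embryos from body cells rather than from a fertilised egg. In cultured plant tissue it is usually started with an auxin, and embryogenic and non-embryogenic callus can arise from the same culture. Pathogenesis-related (PR) proteins are made by plants under attack or stress, and the phenylpropanoid pathway makes stilbenes and flavonoids. The files give locus identifiers alone, without names, so no marker of a cell type could be looked up and the labels EC and NEC could not be checked against embryo markers. Group names used below (PR10, stilbene synthase and others) come from published grapevine assignments of locus ranges and not from the files, and a range can hold other genes. Members of such tandem families are near-identical and may share reads, and the non-directional libraries cannot tell overlapping antisense transcripts apart, so the value of any locus within a family is uncertain.

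The transcriptome of SG EC differed from that of SG NEC at most loci. Of the 19098 loci, 9437 (49.4%) were higher in EC and 6559 (34.3%) were lower, together 83.8%, while 3102 were not called. A locus was called where the Benjamini-Hochberg adjusted p of limma, a linear model fitted to log2(FPKM + 1) of all loci and all 24 libraries, was under 0.05. The EC and NEC libraries did not overlap at 16621 loci (87%), with EC above NEC at 9762 and NEC above EC at 6859. Because so many loci passed, the size of a change tells more than the call. Changes of at least 1 in log2(FPKM + 1), a scale on which low loci seem to change less than they do, were found at 4670 loci higher and 3531 lower. At least 2 was reached by 1962 higher and 1639 lower, at least 4 by 318 and 308, and at least 6 by 30 and 34.

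The median locus was 0.21 higher in EC on this scale as the values were deposited. It was 0.02 higher after median-of-ratios scaling and 0.34 higher after scaling all libraries to equal sums, and the share of called loci that were higher went with it, 59.0% as deposited, 51.2% and 63.5%. Small changes are therefore best read relative to this shift. A level of 1 FPKM was reached in at least 1 library of each tissue at 16748 loci, of which 8092 were higher and 5571 lower. The other loci reached it in libraries of 1 tissue alone, 1351 in EC and 999 in NEC, and such loci were bound to differ. In these samples of whole callus, fewer cells of a type and less RNA per cell cannot be told apart.

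**Figure D1:**
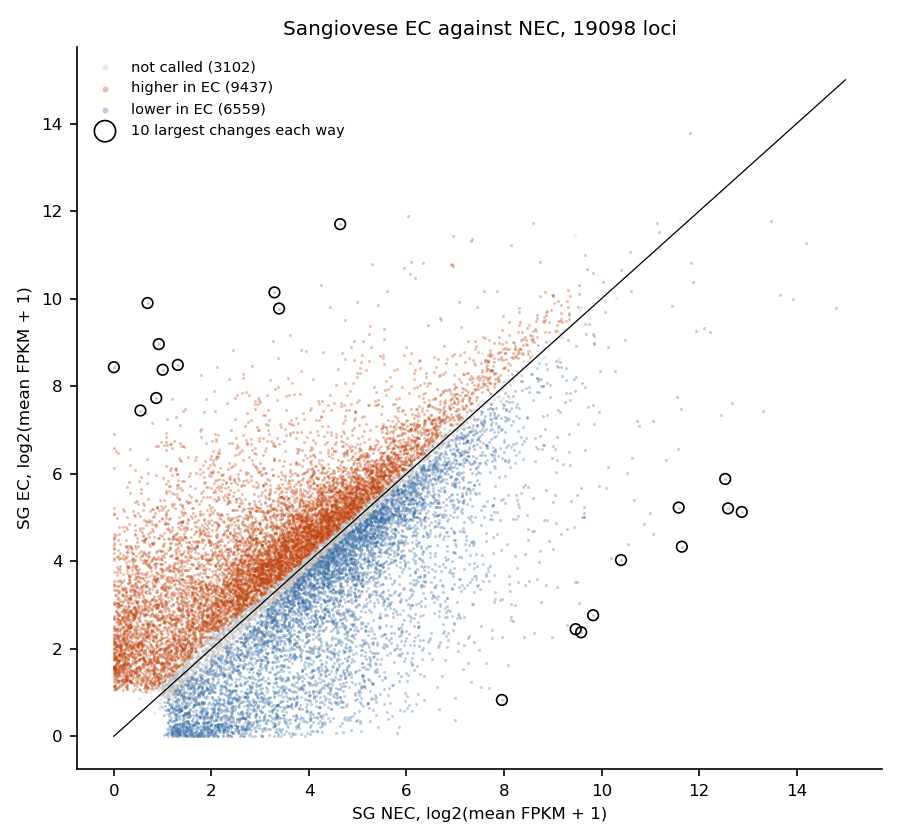
Mean level of each of the 19098 loci in SG EC (vertical axis) against SG NEC (horizontal axis), both as log2(mean FPKM + 1), with the line of equality. Orange points were higher in EC (9437), blue points lower (6559) and grey points not called (3102), and the circles mark the 10 largest changes each way. Points fill both sides of the line along its whole length.

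The RNA of NEC was dominated by fewer loci. The 10 most abundant loci took 5.76%, 6.50% and 6.16% of the FPKM sum in EC replicates 1, 2 and 3, against 15.2%, 13.5% and 15.1% in NEC replicates 1, 2 and 3. It took 1032, 951 and 966 loci to reach the midpoint of the sum in EC, against 560, 627 and 563 in NEC. The 3 libraries of each tissue do not overlap in either measure. VIT_08s0007g00330 was the most abundant locus in every EC library, and VIT_05s0077g01580, in the PR10 range, in every NEC library. The FPKM sums were 780950, 765507 and 777220 in EC and 858259, 839064 and 857275 in NEC. The number of reads is unknown; the most frequent ratio of low values put the depth of the other 5 libraries at 0.775 to 1.04 times that of EC replicate 1. No pair of the 6 libraries held identical values (0 pairs).

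Replicates did not stand equally far from the other tissue. Among 157 loci at 100 FPKM or more in NEC and lower in EC by a log2 change of 4 or more, the median level was 6.38% of the NEC mean in EC replicate 1, 0.591% in replicate 2 and 2.92% in replicate 3. EC replicate 1 was the highest EC library at 156 of the 157 and replicate 2 the lowest at 155. Among 126 loci at 100 FPKM or more in EC that were higher there by at least 4, NEC replicate 2 held a median of 4.46% of the EC mean and was the highest NEC library at 117, against 1.73% and 1.89% in replicates 1 and 3. Across all loci described, EC replicate 3 lay between the other EC libraries at 60.9%. Correlations of log2 levels over loci were 0.963 between EC replicates 1 and 2 and 0.985 for each of them with replicate 3, against 0.987 to 0.994 among NEC libraries; these run over loci, which are not independent replicates. Whether the EC or NEC libraries with the most signal of the other tissue contained some of its cells was not tested. Results below that rest on them are also given without them.

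**Figure D2:**
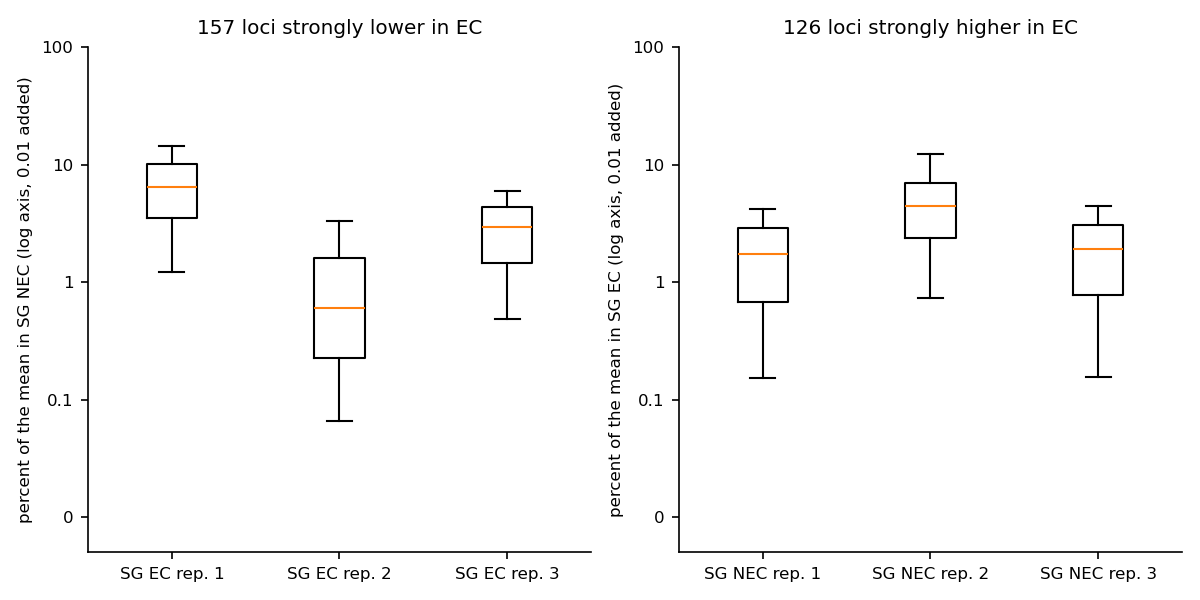
Left, level in each SG EC library as a percent of the SG NEC mean at 157 loci strongly lower in EC. Right, level in each SG NEC library as a percent of the SG EC mean at 126 loci strongly higher in EC. Lines are medians, boxes the quartiles and whiskers the 5th to 95th percentiles, on a log axis. EC replicate 1 (median 6.38%) and NEC replicate 2 (4.46%) stand highest in their panels.

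The 10 loci with the largest rises averaged at most 23.9 FPKM in NEC and at least 173 FPKM in EC. VIT_06s0004g04210 had 706, 1180.0 and 978 FPKM in EC replicates 1, 2 and 3, against 0.611, 1.09 and 0.137 FPKM in NEC replicates 1, 2 and 3. Its log2 change was 9.22 (SE 0.90, limma adjusted p 1.4e-08). VIT_14s0066g00700 had 2547, 3967 and 3476 FPKM in EC, against 9.24, 55.4 and 7.16 FPKM in NEC, a log2 change of 7.61 (SE 0.49, limma adjusted p 3e-11). Its NEC replicate 2 was several times the other NEC libraries, and the change was 8.48 without that library. VIT_17s0000g02470 had 880.1, 1354 and 1154 FPKM in EC, against 6.42, 13.9 and 6.04 FPKM in NEC, a log2 change of 6.92 (SE 0.28, limma adjusted p 5.7e-14). At each of these loci every EC library lay far above every NEC library, but the rule that chose them asked for no overlap.

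VIT_05s0077g01930 had 794, 935 and 894 FPKM in EC, against 3.85, 21.0 and 3.55 FPKM in NEC. Its log2 change was 6.80 (SE 0.43, limma adjusted p 2.6e-11), and 7.54 without NEC replicate 2. It lies on the same scaffold as the PR10 range, beyond its end, and moved the other way from the abundant loci of that range. VIT_08s0007g05850 had 259, 626 and 149 FPKM in EC and was listed at 0 in all 3 NEC libraries (limma adjusted p 7.1e-05), so no fold is given. An exact 0 in these values can be a failed estimate, and the EC libraries of this locus were wide apart. The other 5 of the 10 largest rises, VIT_09s0002g02450, VIT_15s0048g00550, VIT_11s0016g05330, VIT_10s0003g03490 and VIT_07s0005g03290, averaged 173 to 497 FPKM in EC and 0.458 to 1.48 FPKM in NEC.

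The 10 largest falls included loci of the PR ranges and loci in no list, and 4 of them lay in the thaumatin and osmotin range on chromosome 2. VIT_02s0025g04300 had 70.6, 4.74 and 26.4 FPKM in EC, against 7681, 7242 and 7603 FPKM in NEC, a log2 change of -8.39 (SE 0.59, limma adjusted p 1.3e-10). Its neighbour VIT_02s0025g04310 had 78.0, 3.23 and 26.6 FPKM in EC, against 6206, 6077 and 6251 FPKM in NEC. NEC libraries lay within a narrow band at both, while the EC libraries spanned more than a factor of 10, with replicate 1 highest and replicate 2 lowest. VIT_14s0128g00680, which is in none of the lists, had 129, 1.06 and 43.6 FPKM in EC, against 6598, 4493 and 6709 FPKM in NEC (log2 change -8.00, SE 0.91, limma adjusted p 1.5e-07). VIT_06s0004g02560, also in no list, had 12.8, 0.287 and 4.34 FPKM in EC, against 838, 1055 and 827 FPKM in NEC (log2 change -7.63, SE 0.49, limma adjusted p 3.3e-11).

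The same order of EC libraries held at the other falls. VIT_08s0007g06040 had 79.4, 2.68 and 27.1 FPKM in EC, against 3267, 2681 and 3240.2 FPKM in NEC. VIT_09s0002g02970 had 31.2, 1.25 and 13.5 FPKM in EC, against 1333, 1508 and 1204 FPKM in NEC. VIT_03s0088g00700, in the PR1 range, had 1.86, 0 and 0.471 FPKM in EC, against 290.0, 167 and 285 FPKM in NEC. The remaining falls were VIT_02s0025g04330, VIT_02s0025g04280 and VIT_05s0077g01650, with EC means of 4.19 to 19.1 FPKM and NEC means of 708 to 3205 FPKM. Over the 10 falls the log2 change ran from -8.39 to -7.05. Without EC replicate 1 it ran from -9.25 to -7.63, and without EC replicate 2 from -7.41 to -5.96. Leaving out either of these libraries moved 8 of the 10 by more than a factor of 1.5, and leaving out NEC replicate 2 did so for 2 of the 10 rises. All 20 loci kept their call in each case.

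**Figure D3:**
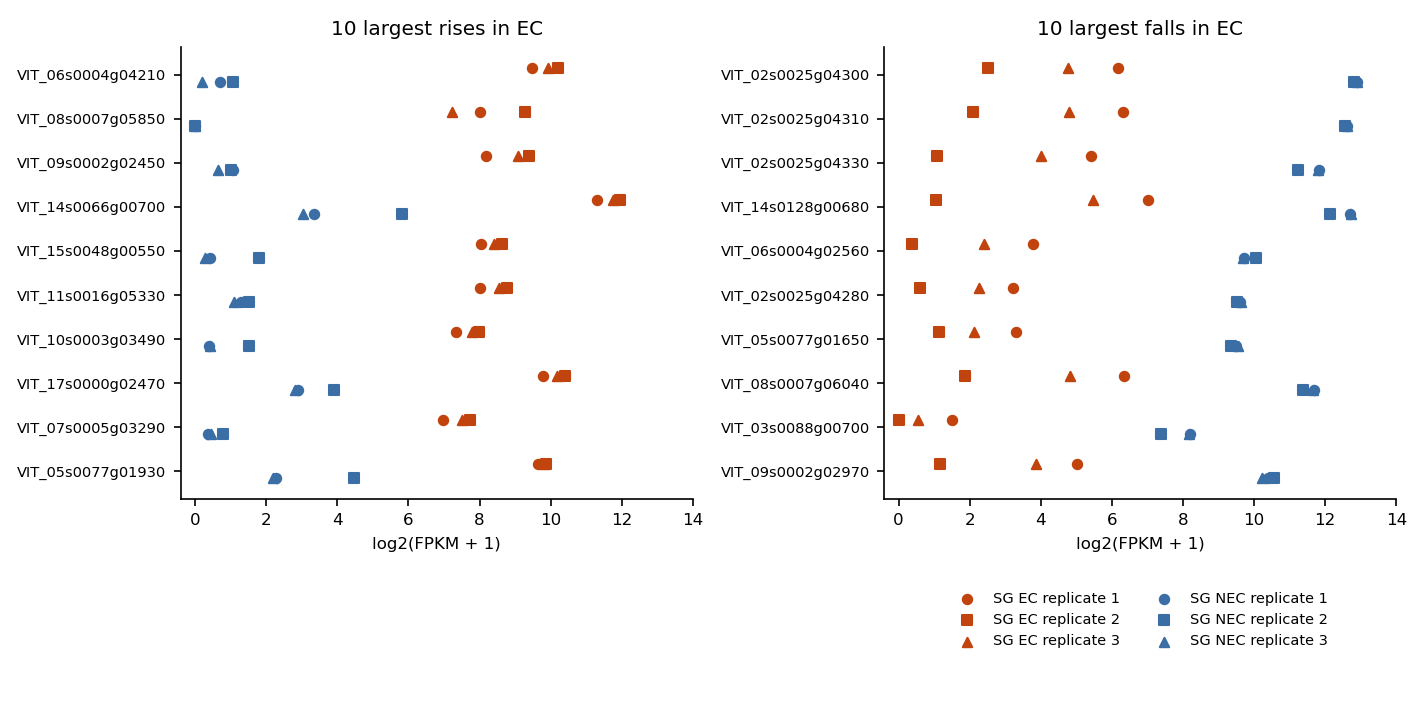
Level of the 10 loci with the largest rises and the 10 with the largest falls in each SG EC library (orange) and each SG NEC library (blue), as log2(FPKM + 1). Circles, squares and triangles are replicates 1, 2 and 3. At the falls the EC points spread in the order replicate 1, replicate 3, replicate 2, as at VIT_02s0025g04300 with 70.6, 26.4 and 4.74 FPKM.

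By absolute amount the rises were led by VIT_08s0007g00330, VIT_16s0013g00880, VIT_14s0066g00700 (described above), VIT_06s0004g04640 and VIT_07s0031g01570. VIT_08s0007g00330 had 11993, 15388 and 14652 FPKM in EC, against 2822, 5226 and 2744 FPKM in NEC, a log2 change of 2.02 (SE 0.31, limma adjusted p 8.3e-06). It was abundant in both tissues and higher still in SG 40D callus, at 20007 ± 203 FPKM (SD, n = 3), so its EC level was not the highest of the SG tissues. VIT_16s0013g00880 had 3213, 4285 and 3875 FPKM in EC, against 28.9, 138 and 26.0 FPKM in NEC (log2 change 6.29, and 7.05 without NEC replicate 2). In SG 40D callus it averaged 6.40 ± 0.626 FPKM and in SG anthers 2.62 ± 3.64 FPKM. VIT_07s0031g01570 had 2531, 2911 and 2796 FPKM in EC, against 77.0, 212 and 81.5 FPKM in NEC (log2 change 4.63, SE 0.32, limma adjusted p 8.9e-11).

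A pair of neighbouring loci on chromosome 6 moved in opposite directions. VIT_06s0004g04640 had 2831, 3678 and 3634 FPKM in EC, against 465, 220.0 and 466 FPKM in NEC, a log2 change of 3.21 (SE 0.44, limma adjusted p 1.5e-06). VIT_06s0004g04650 had 2767, 2217 and 2442 FPKM in EC, against 19932, 16376 and 20026 FPKM in NEC, a log2 change of -2.92 (SE 0.18, limma adjusted p 1.8e-11). Every NEC library lay below every EC library at the first locus and above every EC library at the second. The rule that named both loci asked for no overlap, so this separation was set by the selection. In SG 40D callus the first averaged 44.2 ± 1.73 FPKM and the second 14760.5 ± 162 FPKM (SD, n = 3), so the second was the more abundant there, as in NEC.

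The largest fall by amount was at VIT_05s0077g01580 in the PR10 range, with 1824, 115 and 698 FPKM in EC, against 29758, 26869 and 29181 FPKM in NEC. Its log2 change was -5.76 (SE 0.62, limma adjusted p 6.4e-08), -6.65 without EC replicate 1 and -4.66 without EC replicate 2. VIT_18s0001g14270 had 2025, 172 and 843 FPKM in EC, against 17216, 12252 and 17449 FPKM in NEC. Its neighbour VIT_18s0001g14260 had 2144, 189 and 928 FPKM in EC, against 14396, 10108 and 14393 FPKM in NEC. The 2 neighbours followed each other closely across the 6 libraries, and may share reads if they are copies. Their log2 changes were -4.53 and -4.14, -5.34 and -4.93 without EC replicate 1, and -3.56 and -3.18 without EC replicate 2. In the chitinase range VIT_05s0094g00340 had 378, 9.52 and 127 FPKM in EC, against 10182, 10320.4 and 10093 FPKM in NEC (log2 change -7.00, -8.12 without EC replicate 1 and -5.53 without EC replicate 2).

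Loci assigned to PR families took a larger share of the FPKM sum in NEC than in EC. The share was 0.119% in EC and 3.53% in NEC for PR10, 0.0319% and 2.23% for thaumatin and osmotin, 0.0284% and 1.27% for class IV chitinase, and 0.00356% and 0.0389% for PR1. PR10 proteins are small intracellular proteins induced by pathogens and stress. Of 19 PR10 loci 14 could be described, 13 fell and 1 rose, with a median log2 change of -3.48, beside 34.3% lower and a median of 0.21 over all loci described. The 19 loci summed to 1902, 129 and 735 FPKM in EC, against 31259, 28272 and 30710 FPKM in NEC. The NEC sum was 32.6 times the EC sum, and 69.6 times without EC replicate 1. Leaving out EC replicate 2, which had the lowest sum, would instead lower the ratio, by an amount that was not computed. The same holds for each list ratio below that is also given without EC replicate 1. The 1 rise was VIT_05s0077g01700, at 2.11, 2.07 and 2.31 FPKM in EC, against 0.163, 0.109 and 0.178 FPKM in NEC (log2 change 1.46, SE 0.15, limma adjusted p 3.8e-08). It passed the filter through EC alone, and 2 of the falls through NEC alone. The PR10 loci with the smallest adjusted p were VIT_05s0077g01680, VIT_05s0077g01650 and VIT_05s0077g01670, with log2 changes of -4.50, -7.28 and -4.06.

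Thaumatin and osmotin proteins (the PR5 family) have antifungal activity. Of 15 loci in this range 10 could be described, 8 fell, 1 rose and 1 was not called, with a median log2 change of -6.02. The sums were 411, 114 and 216 FPKM in EC, against 19572, 17770 and 19521 FPKM in NEC, a NEC to EC ratio of 76.8, and of 115 without EC replicate 1. VIT_02s0025g04290 had 2.22, 0.181 and 1.10 FPKM in EC, against 179, 189 and 180.4 FPKM in NEC (log2 change -6.52, SE 0.22, limma adjusted p 3.9e-15). VIT_02s0025g04350, at the end of the range, changed less, with 120.1, 85.7 and 104 FPKM in EC, against 318, 273 and 312 FPKM in NEC (log2 change -1.55, SE 0.10, limma adjusted p 4.7e-11). At the other end, VIT_02s0025g04220 rose, with 5.78, 4.97 and 5.65 FPKM in EC, against 3.52, 3.78 and 3.89 FPKM in NEC (log2 change 0.45, limma adjusted p 0.00026). The not called VIT_02s0025g04210 averaged 9.26 ± 0.625 FPKM in EC and 9.84 ± 2.1 FPKM in NEC (SD, n = 3).

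Class IV chitinases cut the chitin of fungal walls, and in carrot an enzyme of this class is secreted by embryogenic cultures. Of 17 loci in the range 11 could be described, 4 of them through NEC alone, and 9 fell and 2 rose, with a median log2 change of -3.00. They summed to 442, 44.0 and 174 FPKM in EC, against 10806, 10900 and 10731 FPKM in NEC. The NEC to EC ratio was 49.1, and 99.1 without EC replicate 1. VIT_05s0094g00280 had 0.349, 0 and 0.104 FPKM in EC, against 59.6, 52.4 and 58.3 FPKM in NEC (log2 change -5.66, SE 0.32, limma adjusted p 4.2e-12). VIT_05s0094g00320 and VIT_05s0094g00300 fell by 3.61 and by 2.71. The 2 rises were VIT_05s0094g00240, at 3.26, 3.78 and 4.23 FPKM in EC, against 0.625, 2.47 and 0.962 FPKM in NEC, and VIT_05s0094g00370, at 19.6, 22.9 and 23.3 FPKM in EC, against 14.3, 14.7 and 12.7 FPKM in NEC. Their log2 changes were 1.09 and 0.62 (limma adjusted p 2.6e-05 and 3.1e-07).

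PR1 proteins, a further family of defence markers, gave a smaller sum. Of 17 loci 5 could be described, 2 through NEC alone, and 4 fell and 1 rose. The sums were 27.7, 24.4 and 30.5 FPKM in EC, against 375, 245 and 374 FPKM in NEC, a NEC to EC ratio of 12.03. VIT_03s0088g00910 was listed at 0 in all EC libraries and at 4.93, 6.41 and 4.66 FPKM in NEC. VIT_03s0088g00710 had 0.0750, 0 and 0.0767 FPKM in EC, against 5.26, 4.49 and 6.82 FPKM in NEC. VIT_03s0088g00730 rose, with 15.2, 13.8 and 19.3 FPKM in EC, against 8.42, 9.44 and 10.8 FPKM in NEC (log2 change 0.69, SE 0.16, limma adjusted p 0.00051), and made up most of the EC sum. The order of EC libraries seen in the other PR lists did not show in this sum.

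**Figure D4:**
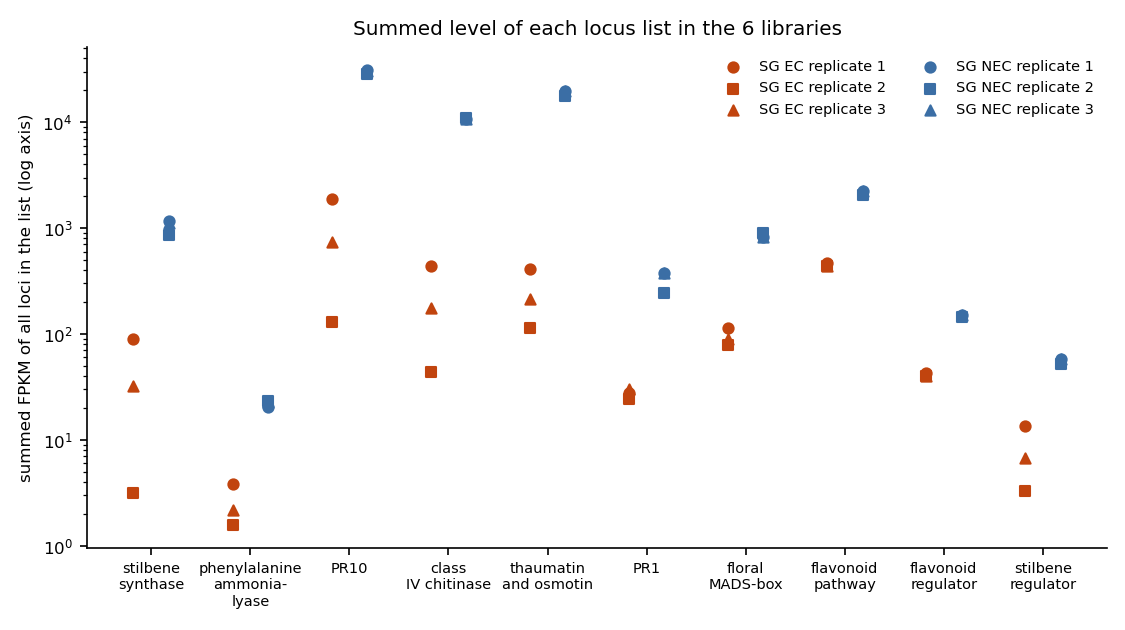
Summed FPKM of all loci in each of 10 lists in each SG EC library (orange, left of each pair) and each SG NEC library (blue), on a log axis. Circles, squares and triangles are replicates 1, 2 and 3. In every list the EC libraries lie below the NEC libraries; the EC libraries are wide apart for stilbene synthase (89.6, 3.18 and 32.4 FPKM) and close together for the flavonoid pathway (468, 434 and 440 FPKM).

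Loci assigned to stilbene synthase, the enzyme that makes resveratrol-type compounds, were low in EC, with libraries far apart. Of 49 loci 24 could be described, 12 of them through NEC alone, and 21 fell, 0 rose and 3 were not called. The SG EC and NEC libraries did not overlap at any of the 24, beside 87% of all loci described without overlap. In the fit of these libraries alone all 24 were lower, though the filter fixed the direction of the 12. Their median log2 change was -2.96. The sums were 89.6, 3.18 and 32.4 FPKM in EC, against 1163, 854 and 1127 FPKM in NEC, a NEC to EC ratio of 25.1, and of 58.9 without EC replicate 1. VIT_16s0100g01100 had 20.4, 0.774 and 7.67 FPKM in EC, against 626, 395 and 595 FPKM in NEC (log2 change -6.26, SE 0.62, limma adjusted p 2e-08, -7.08 without EC replicate 1 and -5.28 without EC replicate 2). VIT_16s0100g01070 had 12.4, 0.321 and 4.56 FPKM in EC, against 129, 107 and 128 FPKM in NEC (log2 change -4.72, -5.49 without EC replicate 1 and -3.82 without EC replicate 2). VIT_16s0100g00780 had 4.51, 0.291 and 1.62 FPKM in EC, against 43.0, 36.4 and 42.4 FPKM in NEC. All 3 followed the order of EC libraries of the PR loci.

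Upstream and regulatory loci of this branch gave fewer values. Phenylalanine ammonia-lyase starts the phenylpropanoid pathway, and its chromosome 16 range held 25 loci, of which 3 could be described. All 3 reached 1 FPKM in NEC libraries alone, so their lower calls were fixed in direction by the filter and none was left with a filter at a mean of 5 FPKM. VIT_16s0039g01360 had 0.983, 0.0901 and 0.527 FPKM in EC, against 8.50, 8.75 and 8.37 FPKM in NEC (log2 change -2.68, SE 0.51, limma adjusted p 8.3e-05). VIT_16s0039g01100 fell by 1.96. The call of VIT_16s0039g01320, with 0.771, 0 and 0.135 FPKM in EC, against 2.58, 2.85 and 3.69 FPKM in NEC, was at the edge, with a limma adjusted p of 0.039 that came to 0.0604 to 0.102 when EC replicate 2 or 3 or any NEC library was left out. The 2 loci assigned to MYB regulators of stilbene synthesis both fell. VIT_05s0049g01020 had 5.91, 0.654 and 2.68 FPKM in EC, against 28.5, 27.6 and 27.3 FPKM in NEC (log2 change -3.05, SE 0.42, limma adjusted p 2e-06). VIT_07s0005g03340 had 7.64, 2.66 and 4.05 FPKM in EC, against 30.0, 24.3 and 31.3 FPKM in NEC (log2 change -2.44, SE 0.42, limma adjusted p 2.9e-05). Both were highest in EC replicate 1 and lowest in EC replicate 2. The NEC to EC ratio of their sums was 7.16, and 11.2 without EC replicate 1.

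The flavonoid branch, which makes anthocyanins, flavonols and tannins, was lower in EC by a smaller factor and evenly across the EC libraries. Of 14 pathway loci 13 could be described, 9 fell, 0 rose and 4 were not called, with a median log2 change of -1.50. The sums were 468, 434 and 440 FPKM in EC, against 2259, 2034 and 2233 FPKM in NEC, a NEC to EC ratio of 4.86. Each EC library therefore held 20.0% to 21.5% of the NEC mean, where for PR10 the EC libraries ran from 0.430% to 6.32%. VIT_18s0001g12800 had 22.2, 18.3 and 19.4 FPKM in EC, against 149.8, 137 and 154 FPKM in NEC (log2 change -2.82, SE 0.11, limma adjusted p 1.7e-14). VIT_13s0067g03820 had 36.5, 19.2 and 23.7 FPKM in EC, against 717, 629.7 and 713 FPKM in NEC (log2 change -4.69, SE 0.31, limma adjusted p 4.5e-11). VIT_05s0136g00260 had 12.1, 10.0 and 11.1 FPKM in EC, against 172, 139.6 and 172 FPKM in NEC (log2 change -3.74, SE 0.42, limma adjusted p 1.1e-07).

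The 4 flavonoid loci that were not called were VIT_14s0068g00920, VIT_14s0068g00930, VIT_00s0361g00040 and VIT_01s0011g02960. VIT_00s0361g00040 had 45.1, 63.7 and 57.0 FPKM in EC, against 40.9, 40.1 and 41.0 FPKM in NEC, with EC above NEC in every library (limma adjusted p 0.063). Of 9 loci assigned to regulators of the flavonoid pathway 6 could be described, 1 of them through NEC alone, and all 6 fell, with a median log2 change of -2.02. VIT_06s0004g00570 had 2.70, 1.36 and 2.56 FPKM in EC, against 33.4, 32.1 and 33.7 FPKM in NEC (log2 change -3.44, SE 0.16, limma adjusted p 3.7e-13). VIT_08s0007g07230 had 3.99, 2.93 and 2.93 FPKM in EC, against 23.6, 20.3 and 23.6 FPKM in NEC (log2 change -2.46). VIT_02s0033g00390 had 0.188, 0 and 0 FPKM in EC, against 2.37, 3.76 and 2.66 FPKM in NEC.

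Floral MADS-box genes encode transcription factors that set the identity of flower organs, and the callus came from anthers. Of 12 loci 8 could be described, 1 of them through NEC alone, and 7 fell, 0 rose and 1 was not called, with a median log2 change of -3.51. The list did not behave as a block within EC. VIT_04s0023g02820 had 19.6, 0.546 and 6.93 FPKM in EC, against 270.4, 299 and 266 FPKM in NEC, and VIT_01s0010g03900 had 16.8, 0.296 and 6.07 FPKM in EC, against 217, 247 and 210.2 FPKM in NEC. Both showed the order of EC libraries seen at the PR loci, with log2 changes of -5.46 and -5.36, of -6.32 and -6.22 without EC replicate 1, and of -4.45 and -4.33 without EC replicate 2. This pair was singled out after the values were seen. VIT_12s0142g00360 had 10.7, 9.53 and 9.64 FPKM in EC, against 72.5, 82.0 and 76.9 FPKM in NEC (log2 change -2.83, SE 0.18, limma adjusted p 1.9e-11), with no such spread. VIT_10s0003g02070 and VIT_18s0041g01880 fell by 3.85 and by 4.31. The exception was VIT_14s0083g01050, with 49.4, 61.1 and 55.5 FPKM in EC, against 51.9, 50.8 and 52.3 FPKM in NEC, where the libraries overlapped. Its difference was 0.09 on the log2 scale with an SE of 0.18. As for all these lists, 83.8% of the loci described were called, so the counts alone do not set a list apart.

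Some loci were near silent in all libraries of 1 tissue. At 214 loci every EC library had 5 FPKM or more and every NEC library under 0.5 FPKM, and at 102 loci the reverse held. Since every library must meet the limits, leaving out any library can only raise these counts. The rise was largest for the libraries described above. Without NEC replicate 2 there were 387 loci of the first kind, and 217 to 259 without any other single library. Without EC replicate 1 there were 255 of the second kind, and 103 to 131 without any other single library. Without both libraries there were 443 and 290. The median level in the expressing tissue was 10.5 FPKM for the first kind and 9.64 FPKM for the second. VIT_16s0022g00460 had 106, 99.9 and 79.2 FPKM in EC and was listed at 0 in all NEC and all SG 40D libraries, while SG anthers averaged 51.5 ± 26.6 FPKM (SD, n = 3). VIT_04s0008g05150 had 64.9, 112 and 97.1 FPKM in EC, against 0.0969, 0 and 0 FPKM in NEC. VIT_12s0028g01790, among the second kind, had 0.150, 0.0974 and 0.253 FPKM in EC, against 47.5, 29.2 and 47.7 FPKM in NEC. These 3 were chosen for display after their values were seen.

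The 214 loci on in EC were mostly on in CS EC too, though fewer met the same limits there. All CS EC libraries had 1 FPKM or more at 182 of them and 5 FPKM or more at 103, and all CS NEC libraries were under 0.5 FPKM at 159. At 71 loci CS met both limits, whereas 15 of the 102 loci off in SG EC were off by the same limits in CS. All SG 40D libraries were under 0.5 FPKM at 77 of the 214 and at 1 FPKM or more at 58, and all SG anther libraries were at 1 FPKM or more at 92. At 17 of the 214 every library of the 5 groups other than SG EC, SG NEC and CS EC was under 0.5 FPKM. Of the 102 loci off in EC, 92 were at 1 FPKM or more in all SG 40D libraries. VIT_13s0147g00080 had 23.6, 29.2 and 26.4 FPKM in SG EC, under 0.2 FPKM in each SG NEC library, and was listed at 0 in all CS EC and CS NEC libraries, with a difference between cultivars of 4.68 (SE 0.10, limma adjusted p 1.7e-16). VIT_14s0083g00680 had 33.0, 102 and 73.3 FPKM in SG EC, was listed at 0 in all SG NEC, CS EC and CS NEC libraries, and averaged 1.04 ± 0.501 FPKM in SG 40D callus. These 2 were also chosen after their values were seen.

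Strong falls came in blocks of neighbouring loci more often than strong rises did by count. Runs of 4 or more neighbours that all changed by at least 2 numbered 21 lower, with 112 loci, and 9 higher, with 37 loci. Without EC replicate 1 and NEC replicate 2 the lower runs numbered 35 and the higher runs 9. The longest was of 11 loci in the PR10 range, followed by runs of 7 loci in the thaumatin range, in the chitinase range and in a stretch of no list. That stretch, VIT_14s0128g00570 to VIT_14s0128g00680, summed to 98.3 ± 106 FPKM in EC and 7136 ± 1326 FPKM in NEC (SD, n = 3). VIT_05s0020g04990 to VIT_05s0020g05060, 6 loci of no list, summed to 291 ± 291 FPKM in EC and 10718 ± 2799.9 FPKM in NEC.

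Runs of rises were shorter and their EC libraries closer together. EC was the higher tissue in these runs and the lower tissue in the runs of falls, so the 2 spreads are not of like levels. VIT_19s0015g01580 to VIT_19s0015g01670, 5 loci, summed to 98.5 ± 15.1 FPKM in EC and 10.6 ± 2.88 FPKM in NEC (SD, n = 3). VIT_13s0019g00740 to VIT_13s0019g00800, 4 loci, summed to 530.1 ± 39.1 FPKM in EC and 53.5 ± 12.1 FPKM in NEC. VIT_05s0062g01280 to VIT_05s0062g01310, 4 loci on the chromosome with the most falls of 4 or more, summed to 149.95 ± 16.2 FPKM in EC and 7.67 ± 2.47 FPKM in NEC. Neighbouring loci may be copies of each other and share reads, so a run is not a set of independent changes.

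Across the study SG EC lay closest to CS EC, and SG NEC to SG 40D callus. The mean correlation over loci of SG EC was 0.916 with CS EC, 0.699 with SG 40D, 0.649 with SG anthers and 0.648 with SG NEC. That of SG NEC was 0.935 with SG 40D and 0.922 with CS NEC. Among the largest falls, VIT_02s0025g04300 averaged 33.9 ± 33.6 FPKM in SG EC, 7508 ± 234 FPKM in SG NEC, 12669 ± 432 FPKM in SG 40D and 30.3 ± 11.5 FPKM in SG anthers (SD, n = 3). VIT_18s0001g14270 had another order, with 1014 ± 938 FPKM in SG EC, 15639 ± 2935 FPKM in SG NEC, 9138 ± 637 FPKM in SG 40D and 21.6 ± 0.374 FPKM in SG anthers. The PR10 sum was 922 ± 901 FPKM in SG EC, 30080.1 ± 1590 FPKM in SG NEC, 33060.0 ± 255 FPKM in SG 40D and 784 ± 370 FPKM in SG anthers. The MADS-box sum was highest in anthers, with 94.6 ± 17.99 FPKM in SG EC, 843 ± 48.3 FPKM in SG NEC, 1712 ± 6.50 FPKM in SG 40D and 2219 ± 244 FPKM in SG anthers.

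**Figure D5:**
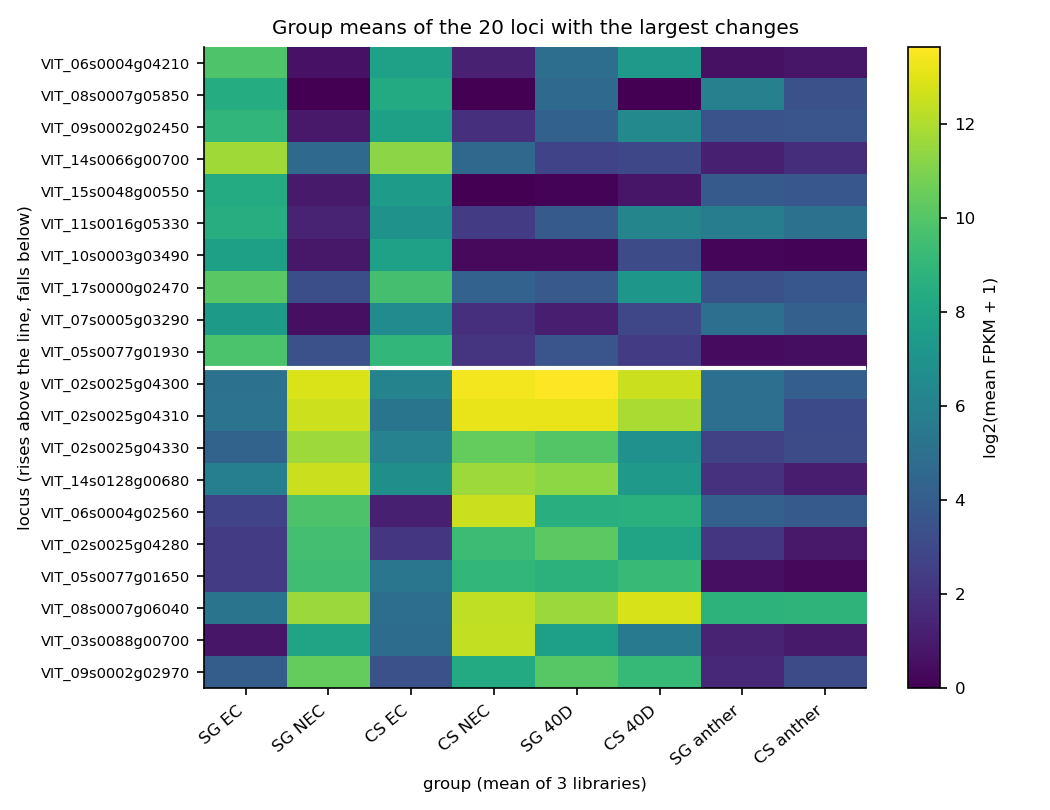
Mean level, as log2(mean FPKM + 1), of the 10 loci with the largest rises (above the white line) and the 10 with the largest falls (below it) in the 8 groups of 3 libraries. Rises are bright in SG EC and CS EC, and falls are bright in NEC and 40D callus of both cultivars. Some are bright elsewhere too, such as the rises VIT_06s0004g04210 and VIT_17s0000g02470 in CS 40D (167 and 149 FPKM). The fall VIT_08s0007g06040 averaged 451 FPKM in SG anthers and 458 FPKM in CS anthers. VIT_02s0025g04300 averaged 33.9 FPKM in SG EC, 7508 FPKM in SG NEC and 12669 FPKM in SG 40D.

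Most loci called in SG changed the same way in CS. Of the loci called in SG, 8433 were higher and 4748 lower in CS EC as well, while 245 were higher in SG and lower in CS and 484 the reverse. The test of the difference, the SG change minus the CS change in the same limma fit, called 9216 loci (48.3%), with SG more positive at 2842 and less positive at 6374, and a median of -0.17. All 20 of the loci with the largest changes were called in the same direction in CS, and 5 of the rises and 4 of the falls were called in the difference. VIT_06s0004g04210 averaged 955 ± 238 FPKM in SG EC against 0.614 ± 0.479 FPKM in SG NEC, and 225 ± 247 FPKM in CS EC against 1.35 ± 0.741 FPKM in CS NEC (SD, n = 3), a difference of 3.99 (SE 1.27, limma adjusted p 0.015). In CS EC the SD exceeded the mean, with 6.02, 493 and 175 FPKM in replicates 1, 2 and 3.

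Several of the largest differences between cultivars came from loci whose NEC levels differed. VIT_08s0007g08330 averaged 0.370 ± 0.431 FPKM in SG EC against 7.44 ± 0.999 FPKM in SG NEC, and 0.148 ± 0.0770 FPKM in CS EC against 524 ± 125 FPKM in CS NEC (SD, n = 3). The difference was 6.15 (SE 0.25, limma adjusted p 2.3e-12), so that the fall was larger in CS. VIT_08s0007g07750 gave 6.11, with 15.9 ± 1.57 FPKM in SG NEC and 885 ± 208 FPKM in CS NEC. VIT_14s0108g00200 fell in SG, with 2.88, 0 and 0 FPKM in EC, against 75.9, 79.6 and 69.2 FPKM in NEC, and was listed at 0 in all CS NEC libraries, a difference of -5.81 (SE 0.51, limma adjusted p 4.5e-08). VIT_01s0026g02370 averaged 4.79 ± 4.30 FPKM in SG EC against 621 ± 176 FPKM in SG NEC, and 12.1 ± 4.90 FPKM in CS EC against 39.6 ± 10.1 FPKM in CS NEC, a difference of -5.34 (SE 0.55, limma adjusted p 4e-07). The SG change of VIT_14s0108g00200 was -5.59, and -6.24 without EC replicate 1, and that of VIT_01s0026g02370 was -7.00, and -6.40 without EC replicate 2.

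In a pair of loci the direction itself differed. VIT_11s0065g00050 had 10.2, 13.0 and 14.4 FPKM in SG EC and was listed at 0 in all SG NEC libraries, but averaged 2.51 ± 2.17 FPKM in CS EC against 17.8 ± 11.9 FPKM in CS NEC (SD, n = 3), a difference of 6.26 (SE 0.85, limma adjusted p 1e-05). VIT_14s0128g00670 averaged 0.0831 ± 0.0301 FPKM in SG EC against 16.9 ± 6.63 FPKM in SG NEC, and 15.9 ± 12.8 FPKM in CS EC against 3.29 ± 1.31 FPKM in CS NEC, a difference of -5.66 (SE 0.56, limma adjusted p 2e-07). It stands next to VIT_14s0128g00680, a locus that fell in both cultivars.

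The lists differed between cultivars to unequal degrees. For flavonoid pathway loci the SG sum of 448 ± 18.04 FPKM in EC stood against 2175 ± 123 FPKM in NEC, while CS had 883 ± 46.4 FPKM in EC against 906 ± 290 FPKM in NEC (SD, n = 3). The difference was called at 12 of the 13 described loci, all with SG more negative, beside 48.3% of all loci in either direction. In CS 2 of these loci fell and 7 rose. For PR10 the difference was called at 7 of 14 described loci, all with SG more negative. Of 11 class IV chitinase loci 5 were more negative and 1 more positive, and of 10 thaumatin and osmotin loci 4 were more negative. These shares lay near the 48.3% of all loci, so the counts alone do not set these 3 lists apart. For PR1 it was called at 4 of 5 loci, all with SG more positive, and the PR1 sum in NEC was 331 ± 74.9 FPKM in SG and 5716 ± 161 FPKM in CS. For stilbene synthase it was called at 1 locus each way of 24, with CS NEC sums that spread to 1290 ± 1482 FPKM.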

How the data were processed

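RNA of grapevine tissues was sequenced from non-directional libraries. CASAVA 1.8.2, then TopHat2 2.0.9, then Cufflinks 2.1.1 are listed, per the submitters' processing notes, and the genome build and annotation were not given in the sources used here. Levels in FPKM were deposited by the authors for 29971 loci with 1 column per library; read depth is unknown, and the number of libraries limits the precision.

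The 21568 loci that reached 1 FPKM in 3 or more of all 24 libraries were fitted together on log2(FPKM + 1) with limma 3.58.1 in R 4.3.3, with 1 mean per group, a trend of spread with level and 16 residual degrees of freedom. P-values were adjusted over all 21568 loci (Benjamini-Hochberg), and loci with an adjusted p under 0.05 were called. The fit was tested on simulated data. Members, lists and tests were chosen with earlier results of these data known. Chromosome numbers are those in the identifiers.

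Named loci were the 10 largest log2 changes and the 5 largest FPKM differences each way, the 3 smallest adjusted p in each list, and the 3 largest cultivar differences each way. For the first, second and last, the rule asked for a call, 5 FPKM or more in the higher tissue, no overlap of EC and NEC libraries, and no locus with 0 beside 10 FPKM or more within a tissue, a condition that left out 26 loci. Same-numbered EC and NEC libraries were not paired, since their deviations correlated at 0.06, 0.06 and -0.12. Alternatives were another pseudocount, filters, scalings, a replicate block, fits of fewer libraries, robust moderation, a minimum log2 change and leaving out libraries. Of the identifiers, 0 matched the reference gene table, so no sequence is shown.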

Additional observations from a re-analysis of the deposited data

Results flagged for a closer look

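These loci, all named in the report or by its rules, had an EC against NEC change that differed between SG and CS in the limma interaction test at an adjusted p under 0.05, as 48.3% of all loci described did. Values are the SG minus CS difference on the log2(FPKM + 1) scale. Among the 20 largest changes they were 3.99 at VIT_06s0004g04210, 3.35 at VIT_09s0002g02450, 3.28 at VIT_11s0016g05330, 1.62 at VIT_17s0000g02470 and 2.42 at VIT_07s0005g03290, all rises that were larger in SG. CS EC replicate 1 was the lowest CS EC library at all of these. It was also the lowest at the other largest rises, where no difference was called, as at VIT_14s0066g00700 with 1715, 3374 and 2277 FPKM. The CS EC libraries held 6.02, 493 and 175 FPKM at VIT_06s0004g04210 and 7.95, 470 and 163 FPKM at VIT_09s0002g02450. No CS EC library was left out in the alternatives, so how far these differences rest on CS EC replicate 1 was not tested. Among the falls the differences were -3.72 at VIT_02s0025g04330, -3.51 at VIT_05s0077g01650 and -2.07 at VIT_09s0002g02970, where SG fell more, and 3.71 at VIT_06s0004g02560, where CS fell more. Abundant loci gave -2.50 at VIT_05s0077g01580 and -2.21 at VIT_18s0001g14260.

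The 3 largest differences each way were 6.26 at VIT_11s0065g00050, 6.15 at VIT_08s0007g08330, 6.11 at VIT_08s0007g07750, -5.81 at VIT_14s0108g00200, -5.66 at VIT_14s0128g00670 and -5.34 at VIT_01s0026g02370. In the defence and stilbene lists SG fell more by -3.51 at VIT_16s0100g01100, -0.82 at VIT_05s0077g01680, -1.85 at VIT_05s0077g01670, -3.25 at VIT_05s0094g00280, -2.20 at VIT_05s0094g00320, -2.0 at VIT_05s0094g00300, -1.87 at VIT_02s0025g04290 and -0.52 at VIT_02s0025g04350. PR1 loci went the other way, with 0.97 at VIT_03s0088g00910 and 5.07 at VIT_03s0088g00710, and so did the MADS-box locus VIT_12s0142g00360, with 2.50. Flavonoid loci gave -1.70 at VIT_18s0001g12800, -2.84 at VIT_13s0067g03820 and -3.48 at VIT_05s0136g00260, and their regulators -2.42 at VIT_06s0004g00570, -2.13 at VIT_08s0007g07230 and 4.60 at VIT_02s0033g00390.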

How the results depend on the processing

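Of the results that sum up a comparison, 277 values under alternatives stayed within 1.5 times the main count and 11 did not. These values are counts of loci, which have no direction, so a reversal could not be seen in them. A minimum log2 change of 1 left 8201 called loci (4670 higher, 3531 lower) and 2893 called differences between cultivars. Phenylalanine ammonia-lyase loci lower in EC numbered 8 with no filter and 0 with a filter at a mean of 5 FPKM, because the filter sets how many of them are tested. Leaving out a library can only raise the counts of loci on and off in EC. With 1 library left out, loci on in EC numbered 217 to 387 (387 without NEC replicate 2) and loci off in EC 103 to 255 (255 without EC replicate 1). Without both libraries, an alternative added after the data were examined like the last 2, there were 443 loci on in EC and 290 loci off in EC, with 35 lower runs. Leaving out 1 library at a time gave 15468 to 15690 called loci, and leaving out both 15333.

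The EC and NEC libraries alone gave 16101 called loci, of which 15641 were shared with the fit of all libraries, and leaving out the 40D libraries gave 15670. The replicate number as a block gave 15963 called loci (9409 higher, 6554 lower) and 9049 differences, but the pairing is by number alone. Of 971 values for named loci 964 kept call and direction, and the other 7 were all VIT_16s0039g01320, whose limma adjusted p came to 0.0604 to 0.102. The unknown depth limits the loci near 1 FPKM.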

Other observations

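Strong falls were unevenly spread over the chromosomes that the identifiers name. The share of loci called lower, by any amount, ran from 30.8% on chromosome 17 to 37.8% on chromosome 16. Falls of at least 4 on the log2 scale numbered 41 of 1086 loci on chromosome 5 and 31 of 1234 on chromosome 14, of 308 in all. Chromosome 14 is large, and chromosome 2 had a like share, with 19 of 747. Rises of at least 4 numbered 16 on chromosome 5, 27 on chromosome 14 and 14 on chromosome 2, of 318 in all. The chromosome 5 count holds the PR10 and chitinase ranges. On chromosome 4, with 1024 loci, there were 7 such falls and 18 such rises. No test was run on these counts, since neighbouring loci of a family are not independent.

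Strong changes in both directions took a larger share of the loci at higher levels. That trend is partly fixed by the log2 scale used, on which a locus at a low level in both tissues cannot change by 4. Falls outnumbered rises in the top range of levels alone, and this balance was not tested. Of 264 loci with 500 FPKM or more in the higher tissue, 50 fell and 30 rose by at least 4. Of 11529 loci with 5 to 50 FPKM these counts were 84 and 107, and of 3868 loci with 50 to 500 FPKM they were 174 and 181.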
